A study of Mus musculus with 9 samples.

Results

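The genes described here are 40 genes of protein folding in the endoplasmic reticulum (ER) and of the unfolded protein response (UPR), the programme that adjusts the folding capacity of that compartment. They were chosen by name, as probe sets that the platform annotation assigns to 1 listed symbol alone. The probe set with the highest mean log2(signal + 12) over the 9 arrays stood for each gene. Of the 40 genes, 39 had such a probe set, out of 18193 genes named on the array, and Sec61g had none of its own. All 39 passed the filter on dim genes, which 12347 genes passed in all.

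RNA was measured in granulocyte-macrophage progenitors (GMPs), the bone marrow cells that give rise to neutrophils and macrophages, sorted for the fluorescent protein EYFP. Donor cells carried Cebpa-Cre, R26-LSL-Eyfp and floxed Dicer1 alleles. Cre under control of Cebpa switches EYFP on, so all groups share the Cre and the reporter, per the labels, and only cells with a history of Cre were sorted. The groups are wild type, heterozygous and null for Dicer1, the enzyme that cuts microRNAs from their hairpins, with 3 arrays each. Donor fetal livers of embryonic day 13.5 were transplanted into C57BL/6 recipients of 6 to 8 weeks that had been irradiated with 8.5 Gy, and marrow was analysed 6 to 10 weeks later. The cells are therefore donor cells in an irradiated host, and several recipients could share the liver of 1 fetus.

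Proteins made for secretion or for granules enter the ER through the Sec61 channel, fold there with chaperones such as BiP (Hspa5), and leave in COPII-coated vesicles, while those that fail to fold are sent back to the cytosol for degradation. GMPs make the enzymes of primary granules, and myeloperoxidase is a glycoprotein that is known to fold with calreticulin and calnexin. When unfolded proteins build up, the sensors IRE1 (Ern1), PERK (Eif2ak3) and ATF6 signal to the nucleus through XBP1, ATF4 and cleaved ATF6. Splicing of Xbp1, phosphorylation and cleavage are not seen by these arrays, which measure RNA level only.

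The targeted gene was lower in the null arrays. Dicer1 signal was 244.3, 228.1 and 223.2 on the wild-type arrays, 168.6, 200.7 and 186.7 on the heterozygous arrays and 115.3, 101.4 and 97.2 on the null arrays. In null against wild type its log2 value fell by 1.07 (SE 0.11; limma, adjusted p = 1.88e-05). Signals are linear MAS5 intensities with a trimmed mean of 100 on every array, and median signals ranged from 12.4 to 16.1. GMP markers were present in all groups, with the myeloperoxidase gene Mpo between 7201 and 8989 on every array. The signals of 12 GMP and primary granule markers summed to 30597 to 34065 in wild type, 30872 to 35667 in heterozygous and 31401 to 33689 in null. In null against wild type, 2 of the 12 rose (Fcgr3, Gfi1) and 1 fell (Csf3r). That is 25%, against 15.7% of all genes and 20.3% of the brighter genes described below. In null against heterozygous Gfi1 rose and Csf3r fell, which is 16.7%, against 14.3% of all genes and 18.6% of the brighter genes. Wild-type replicate 2 stood apart, with Xist at 2610 against 16.4 to 30.2 on the other arrays and Eif2s3y at 1.13 against 622 to 859. The labels call every sample female, but low Xist with high Eif2s3y, a Y-linked gene, runs against that label on all the other arrays. Wild type is thus the 1 group that holds both patterns. The erythroid markers of wild-type replicate 2 summed to 870 against 143 to 367 elsewhere, and it had the lowest summed signal of the genes described here. Results are therefore also given without it where it decides them.

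Several of the gene promoters carry the sequence elements through which the UPR is known to act. The ER stress response element (ERSE), bound by NF-Y together with ATF6 or XBP1, was searched as CCAAT, 9 bases of any kind, and CCACG. A window of 250 bases before to 50 bases after the start of transcription in RefSeq (GRCm38.p6) was given for 34 of the 40 genes. The ERSE stood in the windows of 8 of the 34 genes (23.5%), against 37 of 27025 genes with a window (0.137%). The matches are shown here because they link genes that share a regulatory sequence. Each is read from CCAAT to CCACG, with those letters in capitals:
Calr: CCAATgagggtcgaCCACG
Canx: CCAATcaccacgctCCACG
Creld2: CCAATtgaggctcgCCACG
Dnajc3: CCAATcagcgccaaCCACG
Hsp90b1, nearer the start: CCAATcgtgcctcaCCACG
Hsp90b1, farther from the start: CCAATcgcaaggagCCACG
Hspa5: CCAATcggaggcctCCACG
Pdia6: CCAATgaaaggcggCCACG
Syvn1: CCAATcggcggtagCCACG

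All 9 matches lay before the start of the gene, from 26 to 44 bases before it in Syvn1 to 194 to 212 bases before it in Hsp90b1. The match in Hspa5 was at chr2:34772025-34772043 on the plus strand, 47 to 65 bases before the start. The related ERSE-II (ATTGG, 1 base, CCACG) stood in Dnajb11 and Herpud1, 2 of 34 (5.88%) against 0.0444% of all genes. The UPR element TGACGTGG, bound by XBP1, stood in Sec23a and Sec24d, 5.88% against 0.714%. It ends in CGTGG, the reverse complement of the last letters of the ERSE, but no matches of different motifs overlapped in these windows. The ATF4 composite element (TGATG, 1 base, AAT) stood in 0 of the 34 windows and in 1.08% of all genes. Both strands were searched. A match describes the letters only and is not a measured binding site, and its absence concerns these windows only.

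In null against wild type, ER folding and UPR genes moved in both directions, more often up. Of the 39 genes, 10 rose (Sec23a, Dnajb9, Pdia3, Ern1, Hsp90b1, Derl2, Dnajc3, Edem1, Ssr1 and Hyou1) and 2 fell (Herpud1 and Atf6), which is 30.8% of them. Over all 12347 genes, 15.7% were called in this comparison, 7.6% higher and 8.09% lower. The changes were moderate, between -0.57 and 0.68 on the log2 scale. The median change of the 39 genes was 0.10, with 25 above 0 and 14 below, against -0.0431 over all genes tested. The 3 null values lay wholly above or below the 3 wild-type values for 20 of the 39 genes (51.3%), as for 33.0% of all genes. Most of the listed genes were bright: 38 of the 39 had a mean above the 60th percentile of all probe sets, and of the 9249 genes above it 20.3% were called in the same fit, against 2.07% of the 3098 dimmer genes tested. The sum of the 39 signals was 53078 to 58670 on the wild-type arrays and 57224 to 58984 on the heterozygous arrays. On the null arrays it was 61267 to 62375, above all others. A sum of linear signals is weighted to the brightest genes and does not mean that every gene rose.

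Null against heterozygous gave a similar count with a partly different membership. It shares the null arrays with the comparison above, so the pair of comparisons is not independent, and values are set side by side below. Of the 39 genes, 7 rose (Dnajb9, Sec23a, Derl2, Ern1, Edem1, Atf4 and Pdia3) and 3 fell (Sec61b, Ssr4 and Ssr2), which is 25.6%. Over all genes, 14.3% were called, 6.84% higher and 7.49% lower. Of the 9249 brighter genes, which include 38 of the 39 listed genes, 18.6% were called. The median change of the 39 genes was 0.08 against -0.0289 over all genes. Of the 39, 43.6% did not overlap between groups, as did 32.7% of all genes. In heterozygous against wild type, 0 genes of the list rose and 1 fell (Herpud1), which is 2.56%, where 1.39% of all genes were called, 0.697% higher and 0.697% lower. The median there was 0.02 against -0.00804 over all genes, and 33.3% of the list did not overlap, as did 18.3% of all genes.

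In all, 16 of the 39 genes were called in at least 1 comparison and 23 in none. In bulk samples, fewer cells that carry a transcript and less transcript per cell cannot be told apart. Without wild-type replicate 2, 8 genes were called in null against wild type (20.5%, against 11.7% of all genes), 7 of them shared with the 12. The same setting called 2 in heterozygous against wild type, Herpud1 and Dnajb9, both lower (5.13%, against 1.31%). Without null replicate 3 the count in null against wild type was 7 (17.9%, against 10.2%). Without heterozygous replicate 1 or without null replicate 1, 6 genes were called in null against heterozygous (15.4%, against 8.37% and 10.6%).

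**Figure D1:**
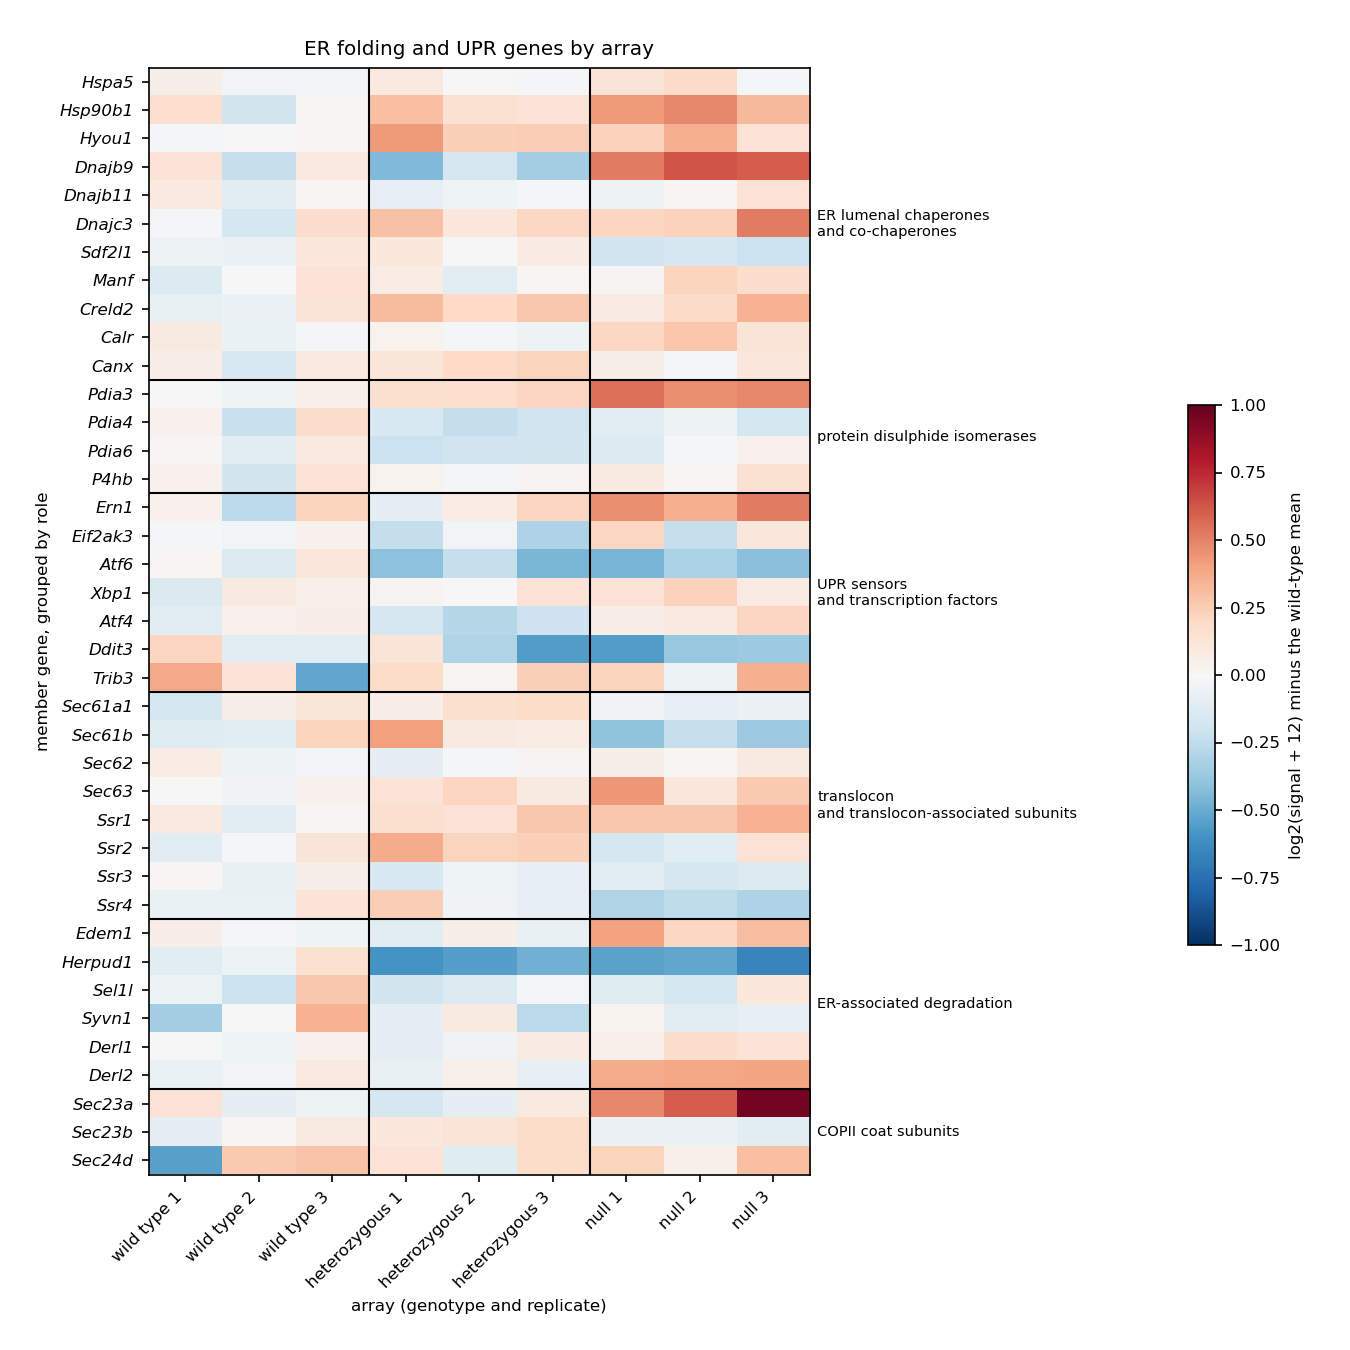
Log2(signal + 12) of each of the 39 measured genes on each array minus the mean of the 3 wild-type arrays, with genes in rows grouped by role, arrays in columns and colour from -1 (blue) to 1 (red). Sec23a, Dnajb9 and Pdia3 are red on all 3 null arrays, and Herpud1 is blue on all heterozygous and null arrays.

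Among ER chaperones and co-chaperones, 4 of 11 rose in null against wild type, 0 fell, and 10 of the 11 changes were above 0, with a median of 0.20. Over all genes, 7.6% were called higher and 8.09% lower in this comparison. Of the 9249 brighter genes, which include 38 of the 39 listed genes, 20.3% were called in either direction. These shares also belong beside the counts by role below. Dnajb9 (ERdj4), a BiP co-chaperone that helps deliver misfolded proteins to degradation, changed most. Its signal was 1242, 960.5 and 1214 on the wild-type arrays, 829.1, 1005 and 884.9 on the heterozygous arrays and 1621, 1761 and 1731 on the null arrays. All 3 null values lay above the other 6, and the heterozygous values tended to lie below wild type, with an overlap. It rose 1.5-fold against wild type (log2 0.59, SE 0.10, limma adjusted p = 0.00157) and 1.87-fold against heterozygous (log2 0.91, SE 0.10, limma adjusted p = 6.87e-05). The heterozygous difference from wild type was -0.32 (adjusted p = 0.169).

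Hsp90b1 encodes GRP94, the ER member of the Hsp90 family, and its promoter holds 2 ERSE matches, shown here in capitals on the minus strand of chr10:86705395-86705694, because it is the risen gene with the most such matches:
Hsp90b1: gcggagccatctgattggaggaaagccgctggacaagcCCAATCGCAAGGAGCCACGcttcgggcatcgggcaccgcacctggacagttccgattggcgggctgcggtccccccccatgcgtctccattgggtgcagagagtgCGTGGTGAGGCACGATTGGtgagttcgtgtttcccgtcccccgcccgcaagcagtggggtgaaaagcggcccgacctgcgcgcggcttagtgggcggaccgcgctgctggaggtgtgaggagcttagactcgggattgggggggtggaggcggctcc

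Hsp90b1 signal was 4179, 3268 and 3754 in wild type, 4569, 4134 and 4088 in heterozygous and 5004, 5200 and 4642 in null. Every null value was above the other 6, and the heterozygous values overlapped wild type. The rise against wild type was 0.41 (SE 0.09, limma adjusted p = 0.00563), and a second probe set gave 0.48 (adjusted p = 0.00137 in a fit over all probe sets). Against heterozygous the difference was 0.21 (adjusted p = 0.121), and the second probe set gave 0.31 (adjusted p = 0.0226). It was called there when probe sets were averaged (0.26, adjusted p = 0.0267) and under quantile normalization (0.29, adjusted p = 0.0158). Hspa5, which encodes BiP and is a common readout of the UPR, did not pass: its signal was 7249, 6811 and 6825 in wild type, 7460, 6958 and 6904 in heterozygous and 7610, 7963 and 6892 in null. The groups overlapped, and the difference was 0.10 (95% interval -0.04 to 0.25, adjusted p = 0.354). Dimmer Hspa5 probe sets differed from wild type by 0.26 and 0.18 and did not pass (adjusted p = 0.092 and 0.406 in the fit over all probe sets). Under quantile normalization Hspa5 was called higher against wild type (0.19, adjusted p = 0.0211) and against heterozygous (0.18, adjusted p = 0.024).

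Hyou1, a large chaperone that exchanges nucleotide on BiP, and Dnajc3, a co-chaperone that binds unfolded substrates, rose by smaller amounts. Hyou1 signal was 1728, 1738 and 1749 in wild type, 2343, 2055 and 2065 in heterozygous and 2046, 2241 and 1923 in null. Both other groups lay above wild type: the difference was 0.25 for null (SE 0.08, adjusted p = 0.0435) and 0.31 for heterozygous (SE 0.08, adjusted p = 0.0749). Dnajc3 signal was 1105, 992.2 and 1264 in wild type, 1372, 1203 and 1291 in heterozygous and 1298, 1309 and 1602 in null. The null values lay above wild type and overlapped heterozygous, and the difference from wild type was 0.32 (SE 0.10, adjusted p = 0.048). Both calls are close to the threshold. The call of Hyou1 held under 10 of 21 other settings and ended without any 1 of 7 arrays (all but heterozygous replicate 1 and null replicate 3), with adjusted p from 0.0531 to 0.153. That of Dnajc3 held under 5 and ended without any 1 of 8 arrays (all but wild-type replicate 3), with adjusted p from 0.0518 to 0.201.

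The lectin chaperones that hold glycoproteins during folding did not pass, but Calr was near the threshold. Calr signal was 3169, 2846 and 2933 in wild type, 3049, 2956 and 2883 in heterozygous and 3444, 3606 and 3251 in null. Here too the null arrays were highest, with a difference of 0.20 from wild type (adjusted p = 0.0599) and 0.21 from heterozygous (adjusted p = 0.0538). A dimmer Calr probe set gave 0.29 against wild type (adjusted p = 0.0439 in the fit over all probe sets), and averaging probe sets called Calr against wild type (0.24, adjusted p = 0.0404) and heterozygous (0.24, adjusted p = 0.0435), as did quantile normalization (0.20 and 0.22, adjusted p = 0.0316 and 0.0213). Its membrane-bound relative Canx differed by 0.05 (95% interval -0.11 to 0.21). Creld2, known to be induced by ER stress, had signals of 636.4, 642.3 and 734.7 in wild type, 835.6, 769.1 and 807.7 in heterozygous and 709.3, 766.6 and 857.0 in null, with differences of 0.21 in null (adjusted p = 0.139) and 0.26 in heterozygous (adjusted p = 0.22). Dnajb11, Manf and Sdf2l1 differed by 0.04, 0.14 and -0.19, and Sdf2l1, a partner of BiP co-chaperones, was the 1 chaperone gene with a difference below 0.

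Of 4 protein disulphide isomerases, which form and rearrange disulphide bonds, Pdia3 rose and 3 did not pass. Pdia3 (ERp57), the isomerase that works with calreticulin and calnexin, had signals of 2330, 2276 and 2424 in wild type, 2615, 2633 and 2727 in heterozygous and 3435, 3231 and 3273 in null. The 3 groups did not overlap, and heterozygous lay between the others. The rise was 0.50 against wild type (SE 0.06, limma adjusted p = 0.000162) and 0.32 against heterozygous (SE 0.06, limma adjusted p = 0.00456). The heterozygous difference of 0.18 from wild type did not pass (adjusted p = 0.223). P4hb, Pdia6 and Pdia4 differed from wild type by 0.09, -0.03 and -0.12 in null.

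Among 7 sensors and transcription factors of the UPR, 1 rose and 1 fell in null against wild type. Ern1, which encodes the kinase and RNase IRE1, had signals of 770.9, 623.9 and 876.2 in wild type, 701.6, 789.9 and 872.7 in heterozygous and 1038, 962.4 and 1083 in null. Null was above the other groups on every array, with rises of 0.45 against wild type (SE 0.11, adjusted p = 0.0172) and 0.38 against heterozygous (SE 0.11, adjusted p = 0.0383). Against wild type the call ended without wild-type replicate 2 (0.32, adjusted p = 0.0651) or null replicate 3 (0.41, adjusted p = 0.0647). Against heterozygous it ended without heterozygous replicate 1 (adjusted p = 0.159) or 2 (0.0959) and without null replicate 1 (0.0943) or 3 (0.125). The 2 dimmer Ern1 probe sets that passed the filter differed from wild type by -0.10 and 0.08 (adjusted p = 0.803 and 0.897), so the call rests on the brightest probe set.

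Atf6, the sensor whose cleaved form is a transcription factor, was lower than wild type in both other groups. Its signal was 133.7, 118.5 and 143.0 in wild type, 96.1, 110.2 and 92.2 in heterozygous and 91.7, 103.0 and 95.1 in null. Null and heterozygous overlapped each other and neither overlapped wild type. The difference was -0.40 in null (SE 0.12, adjusted p = 0.0313) and -0.37 in heterozygous (SE 0.12, adjusted p = 0.171). The call in null ended without wild-type replicate 1 (adjusted p = 0.0794) or 3 (0.115) and without null replicate 1 (0.0922) or 3 (0.0874). It also ended without a filter (adjusted p = 0.0505), under quantile (0.0602) or loess (0.0666) normalization and with probe sets averaged (-0.21, adjusted p = 0.241). The 2 dimmer Atf6 probe sets differed by 0.00 and -0.23 from wild type (adjusted p = 0.994 and 0.5). The third sensor, Eif2ak3 (PERK), had signals of 174.0, 172.7 and 182.2 in wild type, 147.7, 172.5 and 139.7 in heterozygous and 205.1, 148.2 and 191.2 in null, and differed by 0.03 from wild type (95% interval -0.24 to 0.29, adjusted p = 0.914).

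Downstream factors gave 1 call. Atf4, which is translated when PERK or related kinases are active, had signals of 1217, 1357 and 1382 in wild type, 1169, 1076 and 1137 in heterozygous and 1380, 1410 and 1532 in null. The heterozygous values lay below both other groups. It rose by 0.35 in null against heterozygous (SE 0.08, limma adjusted p = 0.00801) and differed by 0.13 from wild type (adjusted p = 0.307), and a dimmer probe set differed by -0.04 from heterozygous (adjusted p = 0.843). Xbp1, the target of IRE1 splicing, had signals of 2022, 2380 and 2316 in wild type, 2281, 2244 and 2471 in heterozygous and 2471, 2618 and 2360 in null, with a difference of 0.15 from wild type (95% interval -0.02 to 0.32, adjusted p = 0.225). Ddit3, which encodes the stress factor CHOP, was dim: 102.4, 79.5 and 79.6 in wild type, 96.0, 68.2 and 54.98 in heterozygous and 54.9, 64.0 and 64.8 in null. Its null values lay below all wild-type values, but the difference of -0.43 did not pass (SE 0.17, adjusted p = 0.101). Trib3, a pseudokinase downstream of ATF4 and CHOP, was near the filter, between 2.07 and 14.2 on all arrays.

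**Figure D2:**
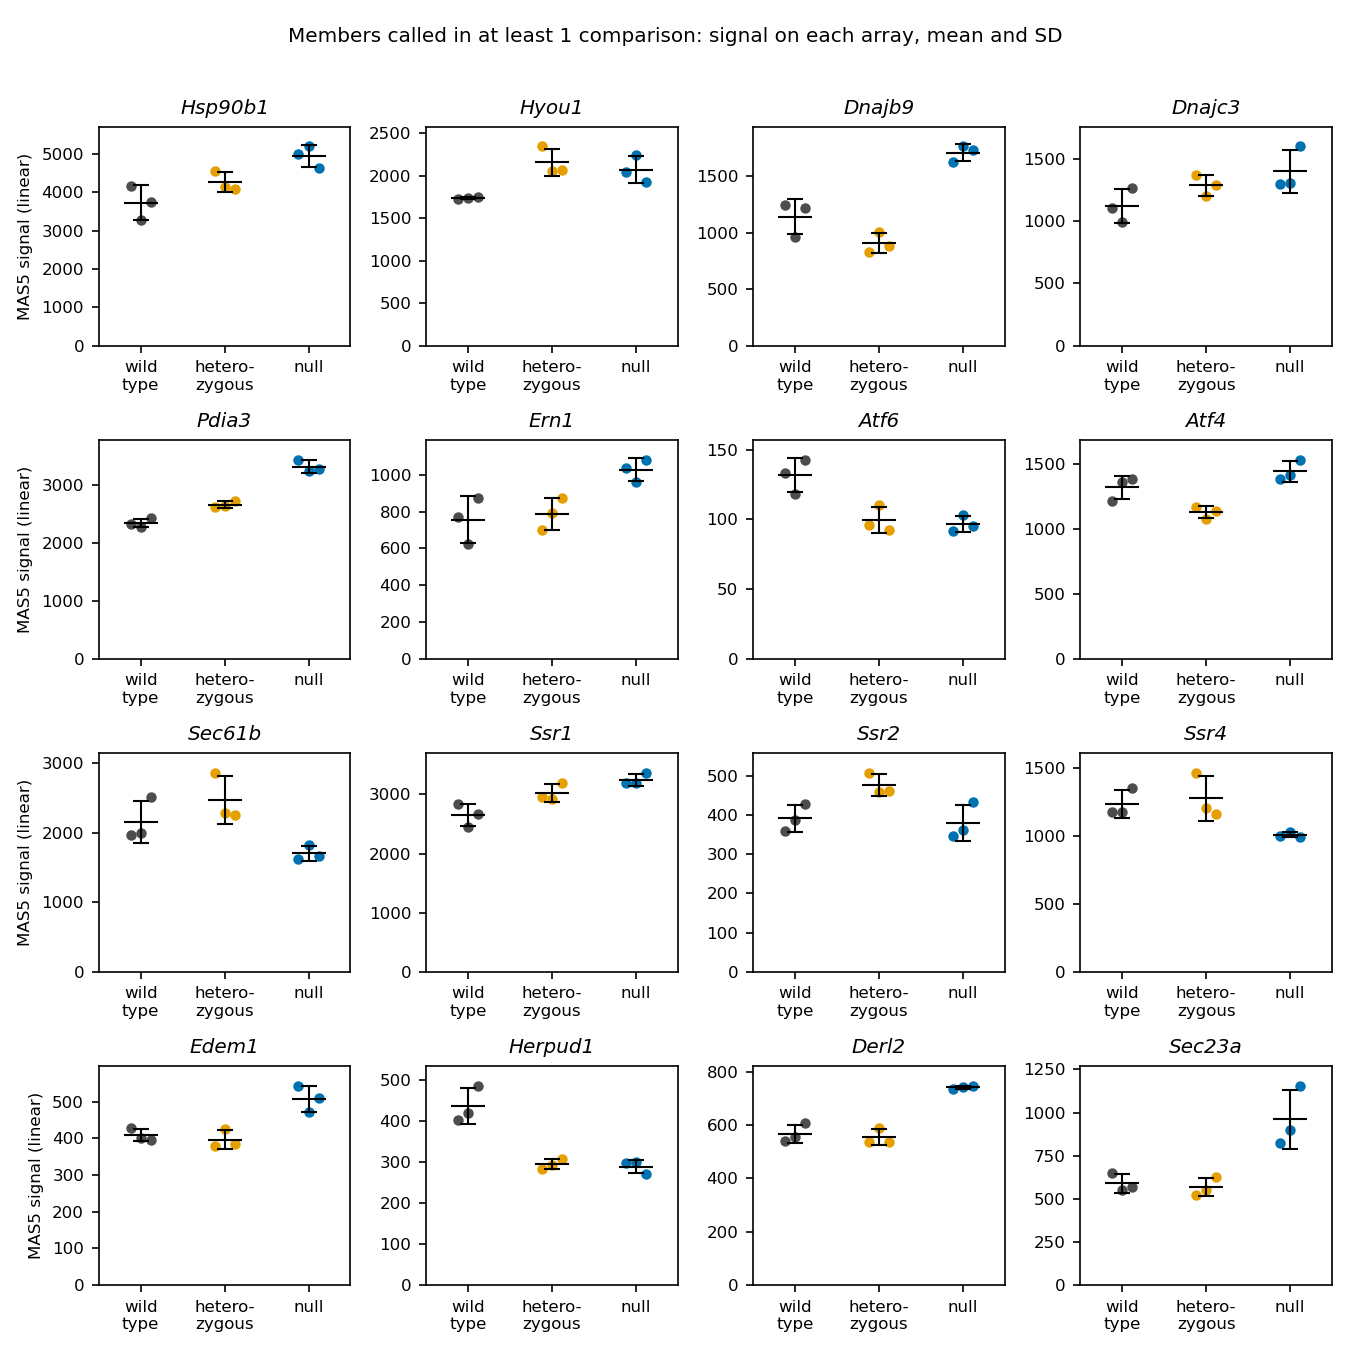
MAS5 signal (linear, from 0) of the 16 genes called in at least 1 comparison, with 1 point per array, a bar for the mean and whiskers for the SD of 3 arrays in each genotype. The 3 null points lie above all others for Hsp90b1, Dnajb9, Pdia3, Ern1, Edem1, Derl2 and Sec23a, and Herpud1 and Atf6 are highest in wild type.

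The calls on subunits of the translocon and of its associated complex differed between the null comparisons, although Sec61b and Ssr4 were near the threshold against wild type. Of 8 tested genes, 1 rose and 0 fell in null against wild type, with a median of -0.05, and 0 rose and 3 fell in null against heterozygous. That is 12.5% and 37.5% of them, against 15.7% and 14.3% of all genes and 20.3% and 18.6% of the brighter genes. Sec61b, a small subunit of the channel, had signals of 1975, 2002 and 2511 in wild type, 2867, 2286 and 2263 in heterozygous and 1622, 1833 and 1668 in null. The null values were the lowest, by -0.52 from heterozygous (SE 0.11, limma adjusted p = 0.00532) and -0.33 from wild type (SE 0.11, adjusted p = 0.0505). Ssr4, the delta subunit of the translocon-associated protein complex (TRAP), had signals of 1172, 1174 and 1354 in wild type, 1464, 1201 and 1163 in heterozygous and 999.2, 1030 and 993.1 in null. It too was lowest in null, by -0.33 from heterozygous (SE 0.09, adjusted p = 0.0285) and -0.29 from wild type (adjusted p = 0.0515). Its call ended without heterozygous replicate 1 (adjusted p = 0.122) and without null replicate 1 (0.0743), 2 (0.0511) or 3 (0.083). Under quantile normalization both were called lower against wild type, Sec61b by -0.35 (adjusted p = 0.0327) and Ssr4 by -0.33 (adjusted p = 0.0244). Loess normalization also called both lower (adjusted p = 0.0348 and 0.0423).

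Ssr1, the alpha subunit of TRAP, was the 1 gene of this role that rose in null against wild type. Its signal was 2832, 2449 and 2668 in wild type, 2950, 2924 and 3194 in heterozygous and 3188, 3187 and 3367 in null, and both other groups lay above wild type. The rise in null was 0.29 (SE 0.07, adjusted p = 0.0128), and the heterozygous difference was 0.19 (adjusted p = 0.26). The call ended without wild-type replicate 2 (adjusted p = 0.0544) or null replicate 3 (0.0533). Dimmer Ssr1 probe sets differed from wild type by 0.12, -0.08 and 0.45 (adjusted p = 0.51, 0.797 and 0.395 in the fit over all probe sets). Ssr2, the beta subunit, was highest in heterozygous, with 359.1, 387.2 and 427.2 in wild type, 507.6, 457.9 and 461.9 in heterozygous and 345.2, 360.6 and 432.3 in null. Its difference of -0.32 in null against heterozygous (SE 0.10, adjusted p = 0.0485) held under 10 of 21 other settings and ended without wild-type replicate 2, any 1 heterozygous array, or null replicate 1 or 2 (adjusted p from 0.0505 to 0.165).

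Sec63, which couples BiP to the channel, had signals of 276.0, 270.0 and 286.5 in wild type, 306.9, 324.4 and 295.5 in heterozygous and 378.2, 301.2 and 334.7 in null. Null and wild type did not overlap, with a difference of 0.27 (SE 0.10, adjusted p = 0.076). A dimmer probe set gave 0.55 (adjusted p = 0.00729 in the fit over all probe sets). The other dimmer Sec63 probe sets gave 0.11, 0.31 and 0.12 and did not pass (adjusted p = 0.527, 0.131 and 0.621 in the same fit). The channel subunit Sec61a1, its partner Sec62 and Ssr3 differed from wild type by -0.06, 0.06 and -0.14 in null, and none passed. A dimmer Ssr3 probe set gave -0.26 (adjusted p = 0.04335 in the fit over all probe sets).

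Of 6 genes of ER-associated degradation, which returns misfolded proteins to the cytosol, 2 rose and 1 fell in null against wild type. Derl2, a derlin of the channel for that return, had signals of 541.0, 555.2 and 605.9 in wild type, 536.7, 588.6 and 535.8 in heterozygous and 735.4, 743.8 and 747.3 in null. The null values lay above all others, by 0.38 from wild type (SE 0.08, limma adjusted p = 0.00511) and 0.42 from heterozygous (SE 0.08, limma adjusted p = 0.0035), while its relative Derl1 differed by 0.12 from wild type (adjusted p = 0.29). Edem1, which recognises glycoproteins that fail to fold, had signals of 426.9, 401.8 and 395.4 in wild type, 377.6, 426.1 and 385.7 in heterozygous and 543.0, 472.6 and 508.6 in null. It was highest in null, by 0.31 from wild type (SE 0.09, adjusted p = 0.029) and 0.35 from heterozygous (SE 0.09, adjusted p = 0.0164). Against wild type its call ended without wild-type replicate 2 (adjusted p = 0.0728) or 3 (0.0903) and null replicate 1 (0.108) or 3 (0.0802). Against heterozygous it ended without heterozygous replicate 1 (adjusted p = 0.0638) or 3 (0.0527) and null replicate 1 (0.0684) or 3 (0.0521). Dimmer probe sets of Derl2 and Edem1 differed from wild type by 0.16 and 0.13 (adjusted p = 0.624 and 0.619 in the fit over all probe sets). Sel1l and Syvn1, the core of the HRD1 ubiquitin ligase, differed from wild type by -0.07 and -0.05.

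Herpud1 encodes a scaffold of the same ligase complex and was the 1 gene of the list called in heterozygous against wild type. It is known to be induced by ER stress, and its promoter holds an ERSE-II, shown in capitals on the plus strand of chr8:94386179-94386478 because this gene fell:
Herpud1: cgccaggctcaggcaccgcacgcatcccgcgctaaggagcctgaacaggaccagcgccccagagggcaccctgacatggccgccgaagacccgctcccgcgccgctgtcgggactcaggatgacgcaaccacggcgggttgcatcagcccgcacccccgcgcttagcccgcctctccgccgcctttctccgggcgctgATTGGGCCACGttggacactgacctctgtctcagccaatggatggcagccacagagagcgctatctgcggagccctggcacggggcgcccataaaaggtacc

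Herpud1 signal was 403.6, 420.2 and 486.4 in wild type, 283.8, 293.9 and 308.1 in heterozygous and 296.9, 299.6 and 271.4 in null. All 6 values of the other groups lay below wild type, and these groups overlapped each other. It fell by 0.57 in null (SE 0.09, limma adjusted p = 0.00109) and by 0.54 in heterozygous (SE 0.09, limma adjusted p = 0.00751), and null differed from heterozygous by -0.03 (adjusted p = 0.886). A dimmer probe set differed by -0.99 in null (adjusted p = 0.0558). The call in null held under 21 of 21 other settings. A list of 21 immediate early and heat shock genes, which respond to handling of cells, had the same order of groups: its summed signal was 27289 to 27640 in wild type, 22536 to 24041 in heterozygous and 20752 to 22944 in null. Of the 21, 10 fell in null and 6 fell in heterozygous against wild type, and 0 rose in either. These are 47.6% and 28.6% of the 21, where 8.09% and 0.697% of all genes were called lower. Fos was between 3196 and 4007 on the wild-type arrays and between 383.8 and 984.5 on the others. The part of handling in the differences of Herpud1 and Atf6, which was also highest in wild type, was not tested.

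Of 3 COPII coat subunits, which build the vesicles that leave the ER, Sec23a had the largest rise of all 39 genes in null against wild type. Its window holds the XBP1-bound element, in capitals, 7 to 14 bases from the start on, on the minus strand of chr12:59011968-59012267:
Sec23a: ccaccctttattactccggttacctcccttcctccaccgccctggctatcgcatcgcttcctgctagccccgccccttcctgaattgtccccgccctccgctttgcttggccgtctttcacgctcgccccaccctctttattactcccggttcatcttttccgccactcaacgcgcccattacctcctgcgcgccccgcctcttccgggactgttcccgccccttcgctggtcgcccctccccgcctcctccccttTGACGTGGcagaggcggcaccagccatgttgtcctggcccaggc

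Sec23a signal was 652.1, 550.0 and 567.4 in wild type, 522.8, 552.3 and 626.4 in heterozygous and 825.5, 899.6 and 1155 in null. The null values lay above all others, and wild type and heterozygous overlapped. The rise was 1.6-fold against wild type (log2 0.68, SE 0.12, limma adjusted p = 0.00156) and 1.67-fold against heterozygous (log2 0.74, SE 0.12, limma adjusted p = 0.00114), with calls that held under 21 of 21 other settings in both. The paralogue Sec23b differed by -0.08 from wild type (95% interval -0.25 to 0.10), and Sec24d, a cargo-binding subunit, by 0.19 (95% interval -0.19 to 0.58). Sec23a forms the inner coat together with a Sec24 protein. Among 14 other COPII and ER exit genes, Sec24a was the 1 that rose in null against wild type, and Sec24a, Mcfd2 and Sar1b rose and Sec16a fell in null against heterozygous. These are 7.14% and 28.6% of the 14, against 15.7% and 14.3% of all genes and 20.3% and 18.6% of the brighter genes. Sec24a signal was 500.0, 454.7 and 596.4 in wild type, 433.3, 546.5 and 575.6 in heterozygous and 891.3, 791.9 and 1012 in null, with a rise of 0.78 against wild type (SE 0.13, limma adjusted p = 0.000909) and 0.78 against heterozygous (limma adjusted p = 0.00115).

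Calls fell on genes with and without the searched motifs. Of the 8 genes with an ERSE, 2 rose in null against wild type (Hsp90b1 and Dnajc3) and 6 did not pass, where 7.6% of all genes were called higher. Of the brighter genes, 20.3% were called in either direction. Of the 21 measured genes with a window and none of the 4 motifs, 6 rose (Derl2, Dnajb9, Edem1, Ern1, Pdia3 and Ssr1) and 15 did not pass. Hyou1 and Atf6 had no window in the table used.

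**Figure D3:**
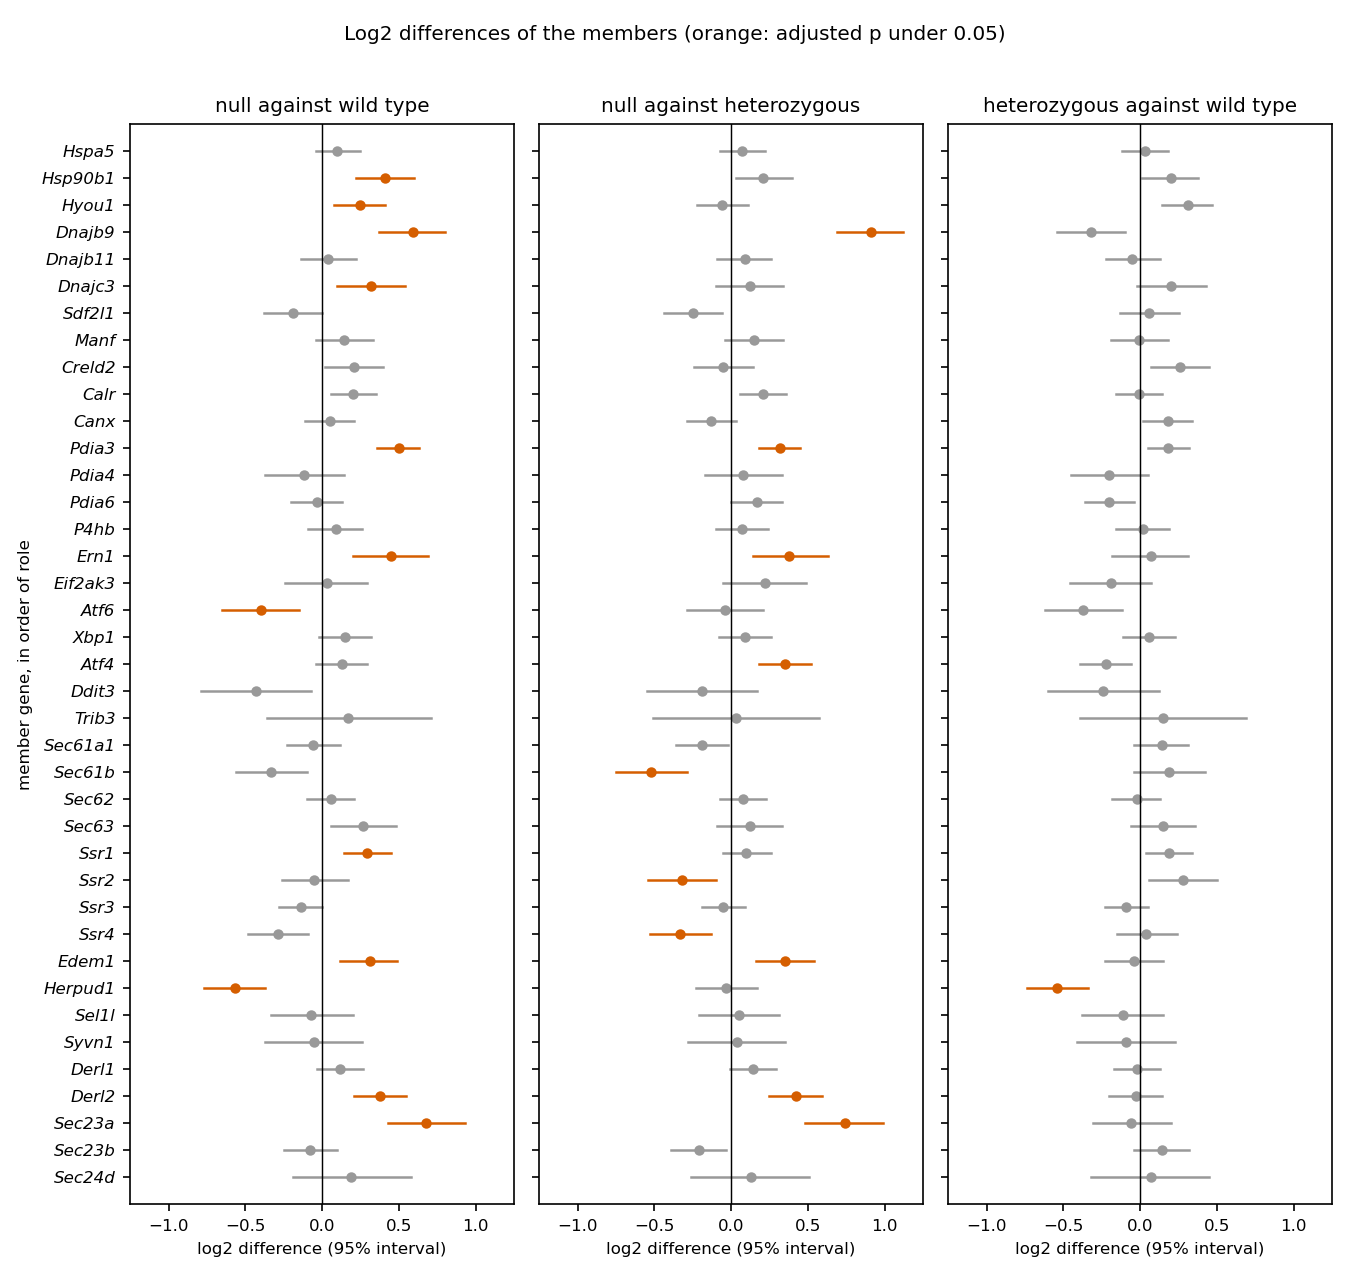
Log2 difference of each of the 39 genes (point) with its 95% interval (line) in null against wild type, null against heterozygous and heterozygous against wild type, in order of role, with adjusted p under 0.05 in orange. Orange points number 12, 10 and 1, and the last is Herpud1.

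Other genes of the same pathway, in 7 lists compiled beside the 40 genes, rose and fell in similar numbers. Of 104 tested genes, 12 rose and 10 fell in null against wild type, with a median of 0.01. That is 21.2%, against 15.7% of all genes and 20.3% of the brighter genes. In null against heterozygous, 12 rose and 9 fell. That is 20.2%, against 14.3% of all genes and 18.6% of the brighter genes. In heterozygous against wild type, 0 were called. Among 18 tested targets of ATF4 and the integrated stress response, 0 rose and 3 fell in null against wild type, a share of 16.7% that is near that of all genes. These were Ppp1r15a, a phosphatase subunit that ends the response (-0.65, adjusted p = 0.0494), and the mitochondrial one-carbon enzymes Mthfd2 (-0.36, adjusted p = 0.0294) and Shmt2 (-0.32, adjusted p = 0.0206). In the oligosaccharyltransferase, which attaches N-glycans, the oxidoreductase subunits Tusc3 and Magt1 rose (0.44 and 0.24, adjusted p = 0.00637 and 0.0459) and the small subunit Ost4 fell by 0.48 (adjusted p = 0.00898), with 12 genes tested.

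Of 14 genes of signal recognition and the signal peptidase, Spcs3, a signal peptidase subunit, rose by 0.37 (adjusted p = 0.00796), the receptor subunit Srpr rose by 0.35 (adjusted p = 0.0276) and Srp9 of the signal recognition particle fell by 0.40 (adjusted p = 0.0107). Of 16 other oxidative folding genes, 3 rose and 2 fell. They include the membrane oxidoreductase Tmx1 (0.41, adjusted p = 0.00542), the oxidase Ero1b (0.37, adjusted p = 0.0208) and the isomerase Fkbp2 (-0.34, adjusted p = 0.0328). Of 17 other degradation genes, 3 rose and 3 fell. Among the ubiquitin-conjugating enzymes of that pathway, Ube2j1 rose by 0.43 (adjusted p = 0.0209), and Ube2g2 and Ube2j2 fell by 0.38 and 0.30 (adjusted p = 0.00866 and 0.0267). Of 13 partners of the sensors, 1 rose, the kinase gene Eif2ak2 (0.39, adjusted p = 0.0495), and 0 fell. In order, the shares called in these lists were 21.4%, 31.25%, 35.3% and 7.69%, against 15.7% of all genes and 20.3% of the brighter genes.

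**Figure D4:**
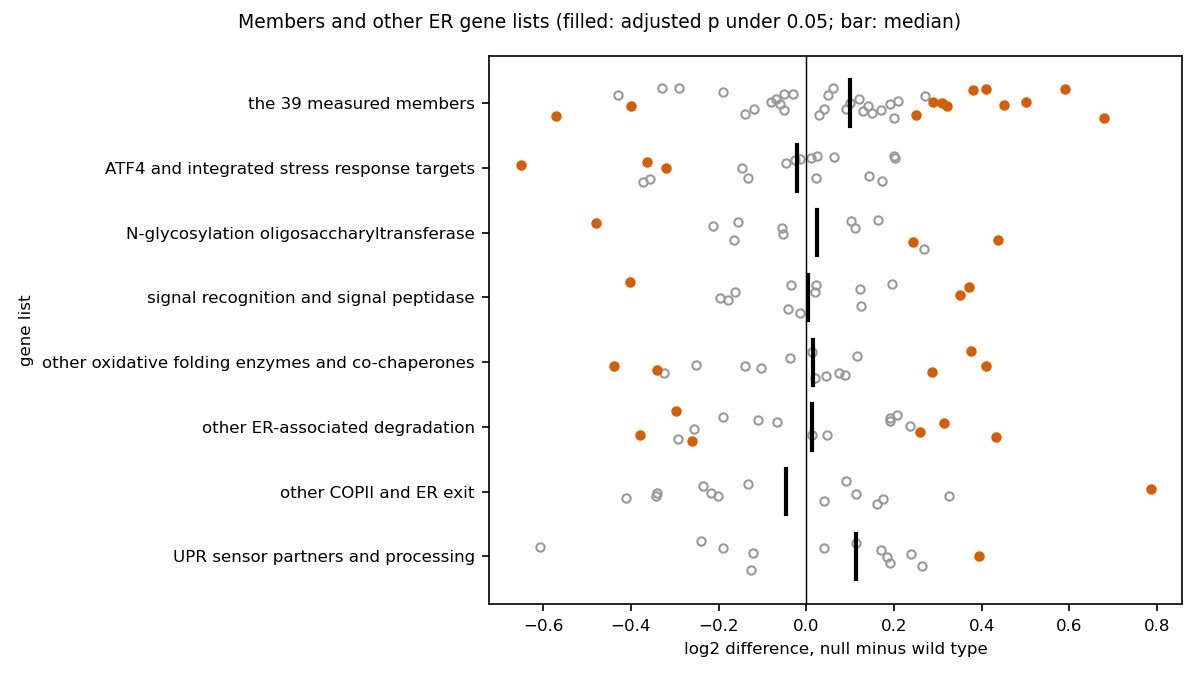
Log2 difference of null minus wild type for each tested gene of the 39 measured genes and of 7 other ER gene lists, with genes at adjusted p under 0.05 filled and a bar for the median of each list. The median is 0.10 for the 39 genes and 0.01 over the other lists together.

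Markers of other cells that a GMP gate could hold were read beside these results. Over all genes, 15.7% were called in null against wild type, 14.3% in null against heterozygous and 1.39% in heterozygous against wild type. B and plasma cell markers, from cells with a large ER, summed to 1233 to 1459 in wild type, 1109 to 1221 in heterozygous and 584 to 678 in null, and of 6 tested 0 rose and 1 fell in null against wild type (Ighm, -1.42) and against heterozygous (Ighm, -1.17). The 8 tested mast cell, basophil and eosinophil markers gave 3 rises (Epx, Prg2 and Prg3) and 1 fall (Fcer1a) in null against wild type, 3 rises (Cpa3, Hdc and Mcpt8) in null against heterozygous and 1 fall (Fcer1a) in heterozygous against wild type. Their list summed to 4748 to 7043, 4592 to 5080 and 5989 to 8121 in the same order. Mature neutrophil markers summed to 4024 to 7494, 2790 to 5064 and 2448 to 8848, and of 8 tested none was called higher against wild type, while Ltf and Ngp were lower in null and Lcn2, Ltf and Ngp in heterozygous (median -0.88). Lcn2 was higher in null against heterozygous. Macrophage and dendritic markers summed to 392 to 565, 476 to 650 and 272 to 312, with 0 of 8 higher and the same 2 (Cd68 and H2-Aa) lower in both null comparisons. Erythroid markers summed to 148 to 870, 258 to 367 and 143 to 280, with wild-type replicate 2 at 870 and the other wild-type arrays at 148 and 159, and 0 of 4 were called in any comparison. The ratio of 3′ to 5′ Gapdh probe sets, a measure of RNA and labelling quality, was 6.56 to 7.44 in wild type, 6.00 to 6.33 in heterozygous and 7.11 to 7.73 in null, and that of beta-actin was 7.20 to 10.2, 7.48 to 8.45 and 7.29 to 8.25. The part of these cells and of RNA quality in the differences was not tested.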

How the data were processed

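The authors deposited linear signal intensities for each probe set, made with MAS5 per the submitters' processing notes. All arrays had a trimmed mean of 100, which hides any shift common to most genes, and levels are not compared between probe sets. Detection calls were not analysed here.

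Of 45101 probe sets, 34945 had 1 gene symbol in the platform annotation, 932 several and 9160 none, besides 64 controls; 34741 matched the RefSeq table of GRCm38.p6 and 0 symbols changed. The brightest probe set stood for a gene. Genes were tested where their mean log2(signal + 12) reached the 40th percentile (signal 8.49), and 5846 genes did not. Changes on this scale understate those of dim genes. limma 3.58.1 in R 4.3.3 (lmFit, eBayes with intensity trend, 6 residual and 8.1 prior degrees of freedom) was fitted on all 9 arrays, two-sided, with Benjamini-Hochberg adjustment over 12347 genes and calls at 0.05. It was tested on simulated data. An exact permutation test of 3 against 3 arrays cannot go below p = 0.1.

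Arrays were grouped by the genotype in their titles. The labels do not say which samples came from separate fetal livers, so p-values measure the spread between these samples, which may be partly technical. Their number limits the precision. Signals on each array are given for genes called in any comparison, for the 7 genes Hspa5, Xbp1, Atf4, Ddit3, Ern1, Eif2ak3 and Atf6, and for the 4 uncalled genes with the largest change in null against wild type; from each other ER list the 4 genes with the smallest p could be named. The genes, lists and tests were chosen with earlier results of these data known. Alternatives changed the pseudocount, filter, normalization, variance prior, arrays in the fit, array weights, use of several probe sets and replicate block, or left out 1 array. Promoter sequences are from RefSeq. Figures were drawn with matplotlib 3.10.9.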

Additional observations from a re-analysis of the deposited data

How the results depend on the processing

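Of the 12 genes called in null against wild type, Dnajb9, Herpud1, Hsp90b1, Pdia3 and Sec23a kept the call under all 21 alternatives, as did Dnajb9, Sec23a and Sec61b of the 10 in null against heterozygous. Averaging all probe sets of a gene gave 7, 0 and 5 called genes of the list in null against wild type, heterozygous against wild type and null against heterozygous, a median of 0.04 in the first, and 86 genes called in all in heterozygous against wild type. These are 18.4%, 0% and 13.2% of the list, against 12.1%, 0.75% and 10.9% of all genes. Averaging also turned Hyou1 in null against wild type to -0.01 (adjusted p = 0.942) and Ern1 in null against heterozygous to -0.06 (adjusted p = 0.801), genes whose other probe sets are dimmer. It ended the call of Herpud1 in heterozygous against wild type (-0.63, adjusted p = 0.145). In null against wild type the same setting also ended the calls of Atf6 (-0.21), Derl2 (0.27), Dnajc3 (0.14), Edem1 (0.22), Ern1 (0.01) and Ssr1 (0.20), with adjusted p from 0.151 to 0.979. In null against heterozygous it ended those of Atf4 (0.05), Derl2 (0.30), Edem1 (0.21), Pdia3 (0.27), Ssr2 (-0.32) and Ssr4 (-0.20), with adjusted p from 0.0544 to 0.742. Without an intensity trend in the variance prior, the list had 7, 0 and 6 calls and all genes 1290, 83 and 1103. Without the filter, 112 genes were called in heterozygous against wild type. The cause of these shifts was otherwise not tested. Leaving out 1 array gave 7 to 13 called genes of the list in null against wild type, 1 to 2 in heterozygous against wild type and 6 to 11 in null against heterozygous. Over all genes it gave 1258 to 1938, 99 to 169 and 1033 to 1897. The list's median in heterozygous against wild type ran from -0.04 to 0.06, and its sign also turned under quantile (-0.00913) and loess (-0.0165) normalization. It turned with array weights (-0.0117) and with probe sets averaged (-0.00344) as well. With the replicate block the list had 12, 1 and 11 calls and all genes 2111, 201 and 1934. Same-numbered arrays correlated by -0.0272 to 0.143 in their deviations, and arrays of different number and genotype by -0.151 to 0.0925. Not every array correlated best with its own number. These values cannot show whether the numbers pair the arrays. Dim genes are limited by signal over background, which the values do not record.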
